A study of Nannochloropsis oceanica with 44 samples.

Results

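Nannochloropsis oceanica is a marine unicellular alga that stops dividing and stores oil when nitrogen runs out, and that returns to growth when nitrogen is given back. A set of 50 genes is described here whose transcripts were at their lowest 6 h after nitrogen was returned. The genes were taken from cluster 4 of the authors' k-means clustering, which holds 418 of the 2489 genes that passed the authors' test for a difference between deprivation and resupply. A gene was included where its value at 6 h of resupply lay more than 1 on the log2 scale, or 2-fold, below the lowest of its other 9 times, where it ended resupply within 2-fold of its 6 h deprivation value, and where it was neither more than 2-fold higher at 72 h of deprivation nor more than 2-fold lower at 24 h of deprivation than at 6 h. These values chose the genes, so the dip and the levels that surround it are description and not separate findings.

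The strain was CCMP1779, wild type, kept as a liquid culture in continuous light. RNA was sequenced in 11 groups of 4 libraries (44 in all), of which the group at the start of deprivation (0 h) was not analysed here. Per the labels' protocols each time had 2 biological replicates, so the 4 libraries are not 4 cultures as far as stated. The titles give each library a letter and a replicate number, and do not say which of these marks the culture. Deprived cells (N-) were washed and held in medium without nitrogen for periods of 6, 12, 24, 48 or 72 h. Resupplied cells (NR) had all been through 72 h without nitrogen and were then placed in medium with nitrogen for the same 5 lengths of time, so every NR group shares that deprivation and a change of medium. Each gene has 1 log2-scale value per time in the tables, as the authors made it, with no error and no replicate. The depth of each library is unknown, and no difference between times could be set against the spread of replicates or tested. A gene counts as higher or lower at a time when it differs by more than 1 (2-fold).

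Nitrogen deprivation is known to slow protein synthesis, photosynthesis and division in algae, and to shift carbon into storage lipid. Return of nitrogen is known to set off its uptake and assimilation first, and growth and division later. Which functions the 50 genes serve cannot be told here. Their identifiers come from a gene annotation pipeline, and none of the 50 occurs in the table of gene names used, which covers 160 organelle genes of the related strain IMET1. No lists of nitrogen, photosynthesis, lipid or cell cycle genes could therefore be applied to them. For each comparison the genes named are those with the largest difference, up to 2 in each direction.

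The dip clause decided which genes of cluster 4 were included. It was met by 57 of the 418 genes (13.6%), whereas 390 met the clause on the end of resupply, 360 the clause on 24 h N- and 418 the clause on 72 h N-. Of the 57 genes with the dip, 5 were left out because they were already more than 2-fold lower at 24 h N-, and 2 because they ended resupply more than 2-fold from their 6 h N- value. In 248 of the 418 genes (59.3%) the lowest value fell at 6 h NR by some margin, so the 50 genes are the part of a continuous range with the deepest dip. The 3 genes just inside the limit had margins of 1.006, 1.035 and 1.042 on the log2 scale, and the 3 just outside had 0.997, 0.991 and 0.990.

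The 50 genes went down in 2 stages. The median level was 9.41 at 6 h N- and 9.45 at 12 h N-, then 8.90, 8.28 and 8.19 at 24, 48 and 72 h N-. At 6 h NR it was 6.35. It was 7.89 at 12 h NR, 8.75 at 24 h NR, 9.44 at 48 h NR and 9.05 at 72 h NR. Levels ranged between 5.67 and 12.82 at 6 h N- and between 3.29 and 9.33 at 6 h NR. The highest value of a gene fell at 12 h N- in 20 cases, at 48 h NR in 17 and at 6 h N- in 13, and at no other time.

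**Figure D1:**
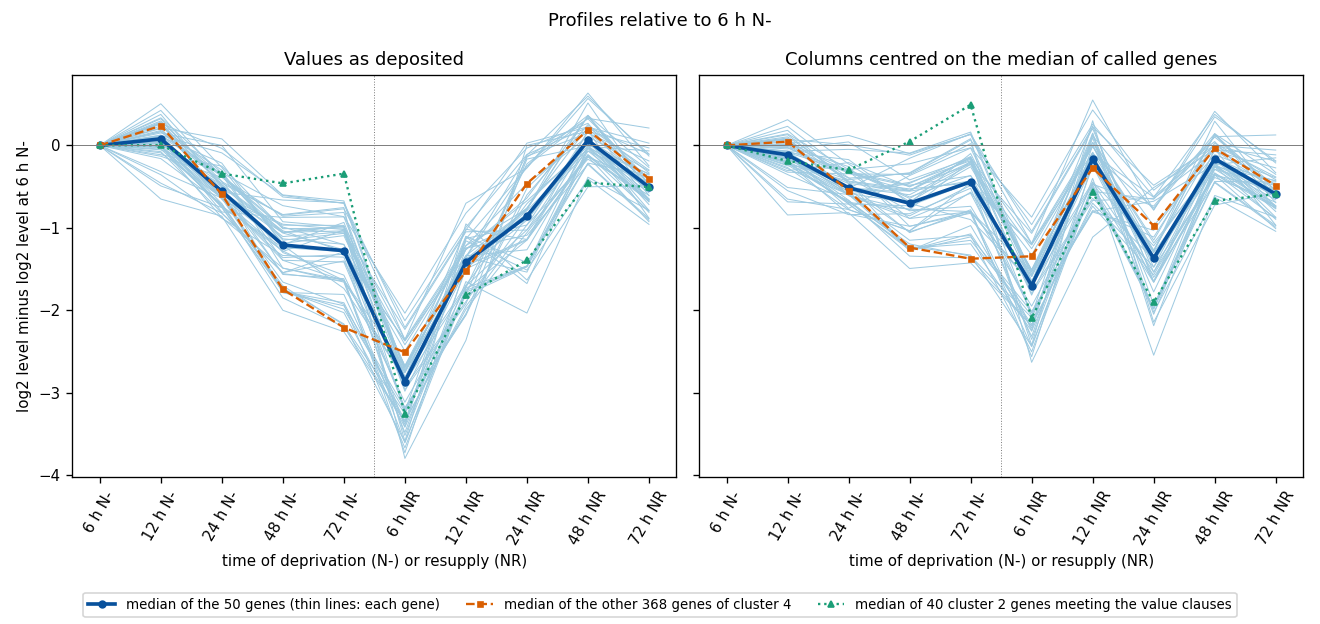
Log2 level minus the log2 level at 6 h N- at each of the 10 times, as deposited (left) and with each column shifted so that the median of the 2489 called genes is 0 (right). Thin lines are the 50 genes and thick lines medians over genes: in the deposited values the median of the 50 genes is at -1.28 at 72 h N-, -2.87 at 6 h NR and 0.06 at 48 h NR, and with centred columns there are 2 low points, -1.70 at 6 h NR and -1.37 at 24 h NR.

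The scaling of the columns bears on the dip itself. With centred columns, shifted so that the median of all called genes is 0 at each time, 43 of the 50 genes still had their lowest value at 6 h NR, and the other 7 had it at 24 h NR. The median margin of the dip was 1.24 in the deposited values (range 1.01 to 2.11) and 0.36 after centring (range -0.58 to 1.52), and 4 of the 50 genes then kept a margin over 1. The median of the called genes was 1.76 higher at 24 h NR than at 12 h NR, while the 872 genes of cluster 3 had a median difference of 3.78 over the same step. The called genes were chosen for their differences, so neither scale is known to be right. Values below are as deposited unless they are said to be centred.

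During deprivation the genes were lower late and only moderately. At 12 h N- none of the 50 was past 2-fold from its 6 h N- level, beside 1.69% of all called genes higher and 1.65% lower, and 33 of the 50 were above their 6 h value by some amount, or 14 with centred columns. Of all 2489 called genes 1835 were above, or 1334 with centred columns. At 24 h N- 49 were below it, with a median difference of -0.56, as were 352 of the other 368 genes of cluster 4 and 1241 of all called genes. At 48 h N- 37 genes were more than 2-fold lower (29.6% of all called genes were), with a median difference of -1.21 and a range from -2.0 to -0.60. At 72 h N- 36 genes were more than 2-fold lower, beside 43.2% of all called genes, with a median difference of -1.28, or 2.42-fold, and a range from -2.26 to -0.67. The remaining 14 genes had lost less than 2-fold when nitrogen came back, so calling the whole set lowered by deprivation would go beyond these values. The rule bounded the value at 24 h N-, and it kept 72 h N- at least 1 above 6 h NR, so these counts are read as description.

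Most of this lowering lay between 12 h and 48 h N-. The median difference was -0.61 from 12 h to 24 h N-, -0.70 from 24 h to 48 h N- and -0.07 from 48 h to 72 h N-. In the last step 16 genes were higher and 34 lower by some amount, beside 755 and 1734 of all called genes. With centred columns the 50 genes had 45 higher and 5 lower, with a median of 0.26, beside 1481 and 1008 of all called genes. In the deposited values none of the 50 differed by more than 2-fold, where 9.92% of all called genes were lower by more than 2-fold. The other 368 genes of cluster 4 had a median difference of -0.42 in that step. By 72 h N- they were at -2.21 from 6 h N-, compared with -1.28 in the 50 genes. With centred columns 9 of the 50 genes were more than 2-fold lower at 72 h N-, beside 23.1% of all called genes, and the median was -0.44. Above their 6 h N- value by some amount were 7 of the 50, 25 of the 368 others and 1319 of all called genes. How far the genes went down in deprivation thus depends on the scaling.

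The gene augustus_masked-nanno_3453-abinit-gene-0.1 had the largest drop in deprivation. Its levels were 9.02, 8.37, 8.16, 7.02 and 6.76 from 6 h to 72 h N-, and 5.66, 7.86, 7.51, 8.61 and 8.06 at the same hours of resupply. It lost 4.79-fold over these times, and 67.4% of its log2 distance between 6 h N- and 6 h NR had been covered before resupply. The gene snap_masked-nanno_133-abinit-gene-0.39 was next, with 9.28, 9.33, 8.58, 7.43 and 7.08 in deprivation and 5.93, 7.33, 8.32, 9.12 and 8.68 in resupply, a difference of -2.20 by 72 h N-. Both were low before nitrogen returned and lower still after it.

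At 6 h NR all 50 genes were more than 2-fold below their 72 h N- level, which the rule requires, and 22.7% of all called genes were. The median difference was -1.60, or 3.02-fold, with quartiles over genes of -1.90 and -1.25 and a range from -3.04 to -1.05. With centred columns 36 of the 50 were more than 2-fold lower, beside 18.2% of all called genes, and the median was -1.27. The other 368 genes of cluster 4 had a median difference of -0.19 in the same step, with 58 lower and 13 higher. Against 6 h N- the 50 genes stood at -2.87 in the median at 6 h NR, or 7.29-fold lower, beside -2.51 for the other cluster 4 genes. At 72 h N- these medians had been -1.28 and -2.21, so in the median the 50 genes started the step higher and ended it lower. The rule that set the 50 apart from the 368 uses both times, so this contrast is description and not a separate finding.

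The share of the whole descent that preceded resupply varied widely between genes. Of the log2 distance from 6 h N- to 6 h NR, a median of 43.7% had been covered by 72 h N-, with quartiles of 34.7% and 55.4%. The lowest share, 19.9%, was that of maker-nanno_831-augustus-gene-0.24, an evidence-based gene model. Its levels were 9.34, 9.36, 8.89, 8.51 and 8.59 in deprivation, then 5.55, 6.98, 9.34, 9.51 and 9.31 in resupply. It had the largest difference at 6 h NR, 8.25-fold below 72 h N- and 13.9-fold below 6 h N-. It was also the furthest below its 72 h N- level at 12 h NR, by 3.06-fold, and it was back at its 6 h N- level at 24 h NR. The second largest difference from 72 h N- was that of snap_masked-nanno_5225-abinit-gene-0.0, 6.00-fold, with 7.90, 7.78, 7.65, 6.89 and 6.90 in deprivation and 4.31, 6.79, 6.22, 7.87 and 7.22 in resupply.

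**Figure D2:**
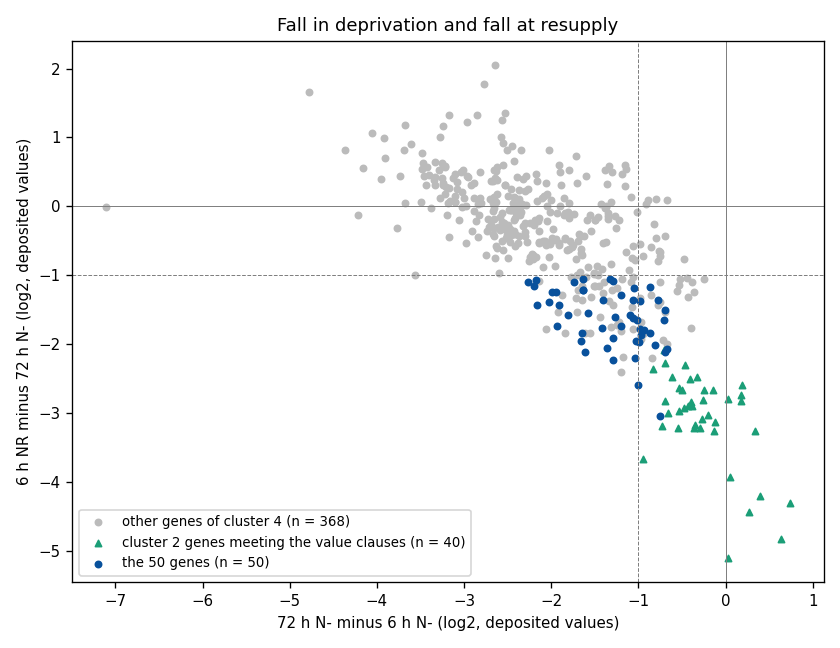
Each point is a gene, with the log2 difference between 72 h N- and 6 h N- on the horizontal axis and between 6 h NR and 72 h N- on the vertical axis (deposited values, dashed lines at -1). The 50 genes lie below -1 on the vertical axis and between -2.26 and -0.67 on the horizontal one. On both axes their median lies between those of the other 368 genes of cluster 4 and the 40 cluster 2 genes that met the same value clauses. The sets overlap: the 368 run from -7.1 to -0.25 on the horizontal axis, and 58 of them lie below -1 on the vertical one. Both axes use the 72 h N- value, so the slope of the cloud is not a result.

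The depth of the dip below all other times was also compared between genes. The widest margin was that of maker-nanno_1068-augustus-gene-0.75, 2.11 or 4.33-fold. Its levels were 10.05, 10.08, 9.54, 8.48 and 8.43 in deprivation and 6.32, 8.59, 8.91, 10.23 and 9.16 in resupply. The gene snap_masked-nanno_5225-abinit-gene-0.0 followed with 1.91. The narrowest margins were those of augustus_masked-nanno_802-abinit-gene-0.2, 1.01, with 10.04 at 72 h N-, 8.99 at 6 h NR and 10.02 at 12 h NR, and of snap_masked-nanno_144-abinit-gene-0.30, 1.03, with 6.03, 4.30 and 5.34 at these times. The time that came second lowest was 12 h NR in 25 genes, 72 h N- in 17, 24 h NR in 5 and 48 h N- in 3. This was not counted for other genes. Across the 50 genes the margin had a Pearson correlation of 0.00 with the mean level over the 10 times, a description over genes that share the same libraries.

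The rule fixed the main course of every gene and not its level. The gene snap_masked-nanno_194-abinit-gene-0.55 had the highest mean level, 11.81, with 12.82 at 6 h N-, 11.17 at 72 h N-, 9.33 at 6 h NR and 12.89 at 48 h NR. The gene maker-nanno_243-augustus-gene-0.34, with a mean of 11.37, had 12.40, 10.41, 9.17 and 12.56. The lowest mean of any of the 50 was 4.83. The middle of the 50 means was 8.54, beside 8.39 for the other cluster 4 genes and 9.27 for all called genes. The spread between a gene's lowest and highest time had a median of 3.23 in the 50 genes, 3.02 in the others of cluster 4 and 3.11 in all called genes.

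**Figure D3:**
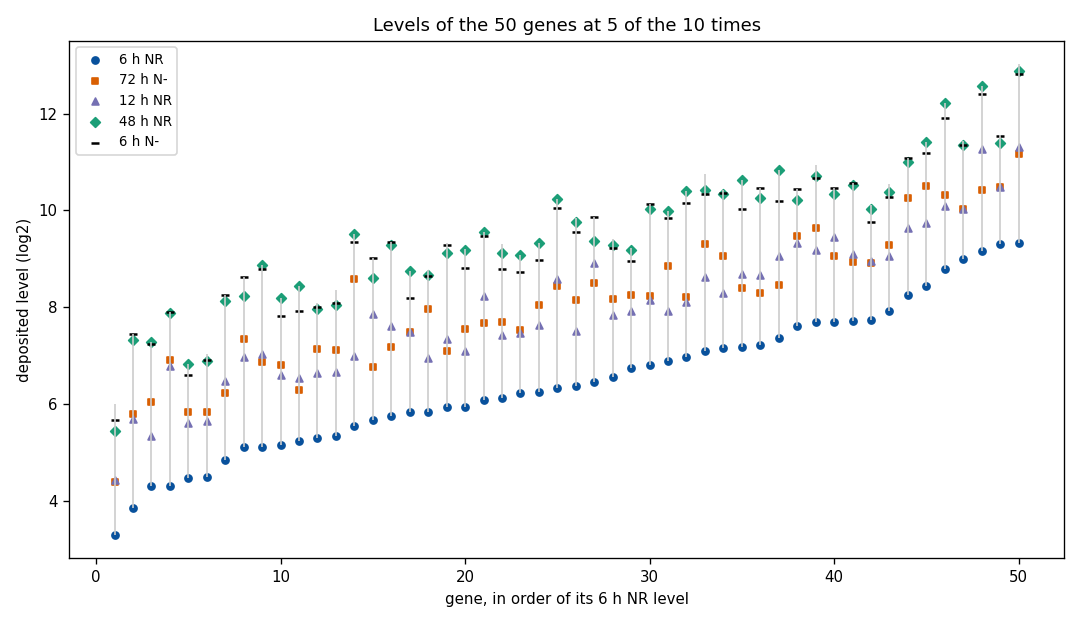
Deposited log2 levels of the 50 genes at 5 of the 10 times, each gene in 1 column in the order of its 6 h NR level. The line of a gene runs from its 6 h NR value to its highest value; in every gene 6 h NR lies below 72 h N- and 12 h NR, and 48 h NR lies close to 6 h N- (differences from -0.50 to 0.64).

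Between 6 h and 12 h NR all 50 genes were more than 2-fold higher, which the rule also requires, beside 10.8% of all called genes. The median difference was 1.38, or 2.60-fold, with a range from 1.03 to 2.48, and with centred columns all 50 were still more than 2-fold higher, beside 12.3% of all called genes, with a median of 1.47. The largest differences were those of snap_masked-nanno_5225-abinit-gene-0.0 (5.59-fold) and augustus_masked-nanno_21-abinit-gene-0.0 (5.51-fold, from 6.45 to 8.91). The other genes of cluster 4 had a median difference of 0.71, with 128 of 368 more than 2-fold higher.

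At 12 h NR, in the deposited values, the genes stood where they had been before nitrogen returned, not where they had been early in deprivation. The median difference from 72 h N- was -0.10, and 47 of the 50 genes were within 2-fold of that level, beside 43.6% of all called genes. The exceptions were the gene on contig 831 and snap_masked-nanno_104-abinit-gene-0.6 (6.95 against 7.95), which were lower, and augustus_masked-nanno_3453-abinit-gene-0.1 (7.86 against 6.76), which was higher. Against 6 h N- 46 of the 50 were still more than 2-fold lower, beside 61.9% of all called genes, with a median of -1.42. After centring 1 gene was, beside 29.8% of all called genes, and the median was -0.17, because the median of all called genes was itself 1.25 lower at 12 h NR than at 6 h N-. The position relative to 72 h N- moved less, to 0.32, with 46 genes within 2-fold, beside 46.8% of all called genes. After centring the median thus lay nearer to the 6 h N- level, so which of the 2 levels the genes had reached depends on the scaling.

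The next step, to 24 h NR, divided the genes. The median difference from 12 h to 24 h NR was 0.60. In 11 genes it was over 1, beside 196 of the other 368 genes of cluster 4 and 49.8% of all called genes. In 32 it was between 0 and 1. In 7 the level at 24 h was lower again, by 0.12 to 0.68, beside 40 of the 368 others and 840 of all called genes. Among the 50 the largest differences were those of maker-nanno_831-augustus-gene-0.24, 5.15-fold, and snap_masked-nanno_851-abinit-gene-0.64, 3.70-fold (8.30 to 10.19). The 7 genes that were lower included snap_masked-nanno_5225-abinit-gene-0.0 and augustus_masked-nanno_2294-abinit-gene-0.0, which had 8.62, 8.16, 7.80, 7.07 and 7.33 in deprivation and 5.10, 6.97, 6.59, 8.23 and 7.83 in resupply. With centred columns none of the 50 was more than 2-fold higher at 24 h than at 12 h NR, 33 were more than 2-fold lower, beside 46.8% of all called genes, and the median was -1.17, so the direction of this step turns with the scaling.

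The early part of deprivation, which does not enter this step, is set beside it here. Of the 7 that were lower at 24 h, 6 had been below their 6 h N- level at 12 h N- by some amount. Of the 32 genes in the middle 9 had been, and 2 of the 11 with the large step. Among the other 368 genes of cluster 4 there were 85 below it, and 654 among all called genes. With centred columns 36 of the 50 were below it, beside 166 of the 368 others and 1155 of all called genes. On that scale 47 of the 50 were lower at 24 h than at 12 h NR, beside 281 of the 368 and 1509 of all called genes. These groups and counts therefore depend on the scaling. Over all 50 genes the difference from 6 h to 12 h N- and that from 12 h to 24 h NR had a Pearson correlation of 0.51 and a Spearman correlation of 0.53. Neither was computed for other genes. The 4 columns are distinct, but the points are genes measured in the same libraries and were grouped after their values were seen, so the correlation is a description and has no p.

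**Figure D4:**
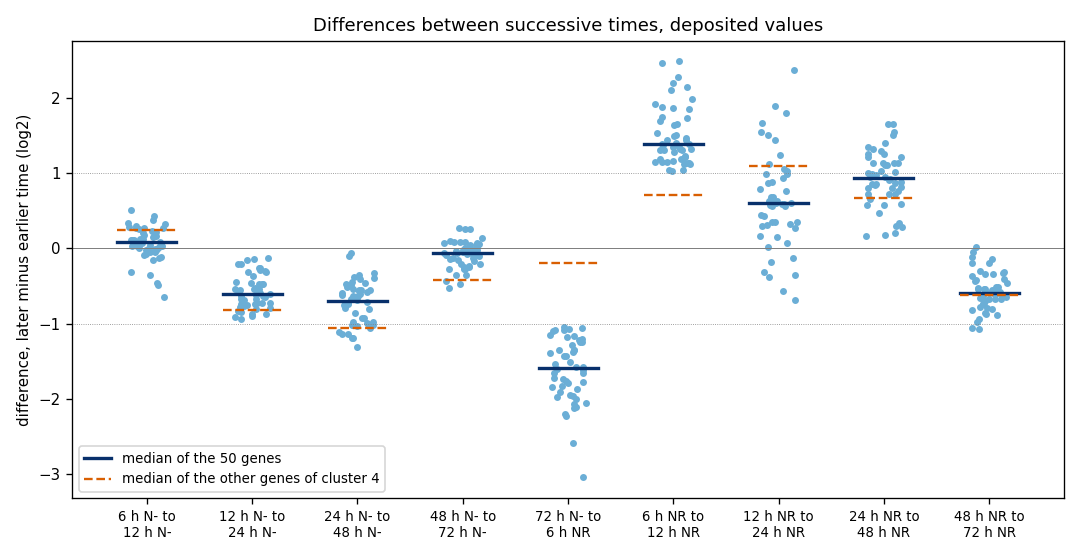
Log2 difference between each time and the one before it for the 50 genes (points, deposited values), with their median (solid bar) and the median of the other 368 genes of cluster 4 (dashed bar); dotted lines mark 2-fold. The medians of the 50 genes are -1.60 from 72 h N- to 6 h NR, 1.38 to 12 h NR, 0.60 to 24 h NR and 0.93 to 48 h NR, beside -0.19, 0.71, 1.09 and 0.67 in the others.

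At 24 h NR 19 genes were still more than 2-fold below their 6 h N- level, beside 13.5% of all called genes, with a median over the 50 of -0.86 and a range from -2.03 to 0.03. The lowest against 6 h N- were the genes on contigs 2294 (4.10-fold) and 5225 (3.20-fold). After centring 37 genes were lower, beside 23% of all called genes, with a median of -1.37. The other genes of cluster 4 were at -0.46. Against 72 h N- 8 of the 50 genes were more than 2-fold higher at 24 h NR, beside 61.3% of all called genes and 262 of the 368 others of cluster 4. The largest of these differences was 1.52, in augustus_masked-nanno_910-abinit-gene-0.28 (8.39 to 9.91). The direction turned with the scaling: with centred columns none was higher and 19 were more than 2-fold lower, beside 25.4% of all called genes, and the median went from 0.51 to -0.83.

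By 48 h NR all 50 genes lay less than 2-fold from where they had been at 6 h N-. The same held for 345 of the other 368 genes of cluster 4 and 74.6% of all called genes. The median difference of the 50 from 6 h N- was 0.06, with a range from -0.50 to 0.64. By some amount 29 of them were above and 21 below, beside 1796 and 693 of all called genes. With centred columns all 50 were again within 2-fold, with a median of -0.16, beside 348 of the 368 others and 78.6% of all called genes. Of the 50, 14 were then above and 36 below, beside 1491 and 998 of all called genes. From 24 h to 48 h NR every one of the 50 was higher, by 0.16 to 1.65. So were 345 of the other 368 genes of cluster 4 and 883 of the 2489 called genes. Of the 50, 20 were higher by more than 2-fold, beside 8.04% of all called genes. With centred columns 39 were, beside 15.2% of all called genes, so the sign of this step held on both scales. Both largest differences, 3.13-fold, were in the genes on contigs 2294 and 5225 that had been lower at 24 h. In the deposited values the 50 genes first came to no more than 2-fold below 6 h N- at 12 h NR in 4 cases, at 24 h NR in 28 and at 48 h NR in 18. This first time was not counted for other genes. With centred columns 1 of the 50 was more than 2-fold below 6 h N- at 12 h NR, beside 29.8% of all called genes. The time of return therefore depends on the scaling.

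At 72 h NR 49 of the 50 genes were below their 48 h NR level, by a median of 0.59, as were 335 of the other 368 genes of cluster 4 and 1766 of the 2489 called genes. Of the 50, 2 were so by more than 2-fold, beside 11.4% of all called genes, snap_masked-nanno_444-abinit-gene-0.5 (8.43 to 7.37) and maker-nanno_1068-augustus-gene-0.75 (10.23 to 9.16). Relative to 6 h N- the median was -0.51, within the limit that the rule set. Below their 6 h N- level were 48 of the 50, 320 of the other 368 genes of cluster 4 and 1102 of all called genes. Against 72 h N- all 50 were higher by some amount, as were all 368 others of cluster 4 and 1698 of all called genes. The median was 0.73, and 19 of the 50 were higher by more than 2-fold, beside 47.2% of all called genes and 302 of the 368 others of cluster 4. With centred columns none of the 50 was more than 2-fold higher, beside 27.3% of all called genes, 31 were lower by some amount, beside 1278 of all called genes, and the median was -0.19. The gene snap_masked-nanno_320-abinit-gene-0.37 had the largest difference, 3.06-fold. Its levels were 10.16, 10.13, 9.68, 8.37 and 8.21 in deprivation and 6.97, 8.11, 9.56, 10.41 and 9.82 in resupply.

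The authors' test set resupply against deprivation, so matched hours are given side by side. At 6 h all 50 genes were lower in NR, which the rule requires, beside 59% of all called genes. At 12 h 44 were lower and none higher, with a median of -1.50, beside 62.8% of all called genes lower. At 24 h 2 were lower and none higher, with a median of -0.31, beside 10.5% of all called genes lower and 44% higher. At 48 h 39 were higher and none lower, with a median of 1.32, or 2.50-fold, beside 47.9% of all called genes higher. The largest difference at 48 h was 4.11-fold, in the same gene on contig 320. After centring the medians at 12, 24 and 48 h were -0.05, -0.87 and 0.59. None of the 50 was then past 2-fold at 12 h, beside 34% of all called genes higher and 32.5% lower. At 24 h 21 genes were then lower, beside 18.2% of all called genes, and at 48 h 8 were higher, beside 21.8%. The 48 h difference is taken against N- levels that were themselves a median of 1.21 below 6 h N-.

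The dip itself was not limited to cluster 4. The same value clauses were met by 40 genes of cluster 2, 2 of cluster 3 and none of cluster 1. The 40 cluster 2 genes had a similar margin (median 1.26, beside 1.24) and differed before resupply: at 72 h N- none of them was more than 2-fold below 6 h N-, and their median difference was -0.34, beside -1.28 with 36 lower in the 50. They then stood a median of 2.91 below 72 h N- at 6 h NR, beside 1.60. From 6 h NR to 12 h NR the medians were 1.28 and 1.38, from 12 h to 24 h NR 0.66 and 0.60, and from 24 h to 48 h NR 0.96 and 0.93. At 48 h NR the cluster 2 genes were at -0.45 from 6 h N-, beside 0.06. Both sets were chosen by the same clauses and the clusters were made from these profiles, so the likeness in resupply and the contrast in deprivation were not tested.

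The identifiers carry features that the rule did not use. Evidence-based models made up 15 of the 50 genes (30.0%), beside 30.7% of the other cluster 4 genes and 34.8% of all called genes. The gene finder snap had made 27 of the 50 models (54.0%), beside 47.3% of the others of cluster 4 and 40.1% of all called genes. These shares are counts of models and were not tested. The 50 genes lay on 39 contigs, of which 31 held a single one and 8 held 19 between them. The share on a contig with another gene of the same set was 38.0%. It was 37.2% in the others of cluster 4, 36.9% in cluster 2 and 70.6% in all called genes. Such a share tends to rise with the size of the set, and these sets hold 50, 368, 401 and 2489 genes. No sets of equal size were drawn, so the shares do not show whether the 50 genes share contigs more or less often than others. Of the 151 other called genes on these 39 contigs 53 belonged to cluster 1 (35.1%), 26 to cluster 2 (17.2%), 48 to cluster 3 (31.8%) and 24 to cluster 4 (15.9%), beside 32.7%, 16.4%, 35.8% and 15.1% of all called genes outside the 50.

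Contig 653 held 4 of the 50 genes and 5 called genes in all, each of cluster 4. The most abundant of the 4, maker-nanno_653-snap-gene-0.22, had 10.13, 10.12, 9.38, 8.36 and 8.22 in deprivation and 6.79, 8.14, 9.07, 10.02 and 9.33 in resupply. The weakest, snap_masked-nanno_653-abinit-gene-0.16, had 7.45, 7.44, 6.57, 5.96 and 5.79, then 3.84, 5.69, 6.30, 7.31 and 6.52. Profiles of the 4 had pairwise Pearson correlations from 0.97 to 0.99, and their margins ran from 1.35 to 1.86. The fifth called gene of the contig, maker-nanno_653-snap-gene-0.23, had no dip, with 5.43 at 72 h N-, 5.52 at 6 h NR and 6.84 at 12 h NR. These genes were picked out after their values were seen. Their positions on the contig were not used here, so whether the models overlap or share reads is not known.

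Contig 851 held 3 of the 50 genes among 11 called genes, of which 6 belonged to cluster 4 and 5 to cluster 1. The 3 dipped to 7.15, 5.33 and 7.69 at 6 h NR from 9.06, 7.10 and 9.64 at 72 h N-. A further cluster 4 gene there, maker-nanno_851-augustus-gene-0.67, missed the limit with a margin of 0.85 (11.23 at 72 h N- and 9.55 at 6 h NR). The other 2 cluster 4 genes of the contig had little or no dip: augustus_masked-nanno_851-abinit-gene-0.10 had a margin of 0.11, and augustus_masked-nanno_851-abinit-gene-0.9 was lower at 12 h NR (3.73) than at 6 h NR (4.27). The pair on contig 1068 comprised the gene with the widest margin of all and augustus_masked-nanno_1068-abinit-gene-0.12, with a margin of 1.53. Over all 15 pairs on a shared contig the correlation of the profiles had a median of 0.97, beside 0.95 over the 1210 pairs on different contigs, and the clusters were formed on this correlation.

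**Figure D5:**
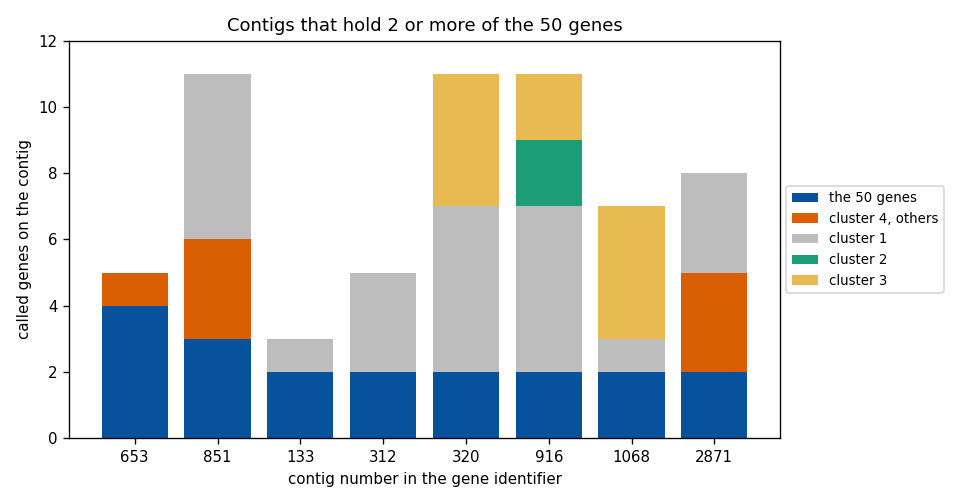
Number of called genes on each of the 8 contigs that hold 2 or more of the 50 genes, stacked by the 50 genes, the others of cluster 4 and clusters 1, 2 and 3. On contig 653 the 50 genes make up 4 of 5 called genes, and on contigs 320, 851 and 916 they are 2 or 3 of 11.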

How the data were processed

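Reads (single-end, 50 bases) were trimmed with Trimmomatic 0.32 and placed on the CCMP1779 genome by STAR 2.3.0e, keeping reads with a unique place, and HTSeq 0.6.1 counted them per gene, per the labels' protocols. DESeq2 then selected genes for condition and its interaction with time, which MeV split into 4 clusters by k-means, per the labels' protocols. Keeping only such reads undercounts near-identical genes. The deposited values are on a log2 scale, a unit inferred from their size (1.46 to 19.5). The sources used here do not state the transformation, the library scaling or how the libraries of a time were joined. Other deposited numbers are the authors' row numbers, not used.

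Levels, differences, medians over genes and counts past 1 were computed in pandas 2.3.3 (Python 3.11.15, with scipy 1.17.1 and numpy 2.4.6), and the selection was tested on simulated data. With 1 value per time no test across libraries was possible, so the planned limma fit was not run. Alternatives were centred columns, other limits and leaving out weak genes. The 50 genes, the comparisons and the lists were chosen with earlier results of these data known. Named genes are those with the largest differences, up to 2 in each direction.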

Additional observations from a re-analysis of the deposited data

Results flagged for a closer look

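The contrast of NR with N- had opposite signs at 2 hours in most of the 50 genes. In 39 of them (78.0%) NR was the lower by over 2-fold at 6 h and the higher by over 2-fold at 48 h, beside 306 of the other 368 genes of cluster 4 (83.2%), none of cluster 2 and 864 of all 2489 called genes (34.7%). The 6 h side was set by the rule, the genes were called for such differences, and the difference between the hours was not tested. With centred columns 8 of the 50 genes (16%) showed the turn, beside 177 of the 368 and 301 of all called genes (12.1%).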

How the results depend on the processing

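Of 40 combinations of a result and another setting, 23 moved the count by over 1.5 times, and of the other 17, 6 set 0 beside 0. With columns centred on the median of called genes the rule found 4 genes, all among the 50, and with columns centred on the mean of the 4 cluster medians, chosen after seeing the data, it found 11, 10 of them among the 50. A dip margin of 0.5 gave 114 genes and one of 1.5 gave 9, limits of 0.5 on the other clauses gave 15, and the clauses applied to all 4 tables gave 92. Limits of 1.5 on the other clauses gave 56. Centring changed the counts past 2-fold against 6 h N- to 14 lower at 48 h N- (from 37), 9 at 72 h N- (from 36), 1 at 12 h NR (from 46) and 37 at 24 h NR (from 19). It left 0 higher at 24 h than at 12 h NR (from 11) and 0 at 72 h NR against 72 h N- (from 19), the median turning sign in both, and 8 with the turn between 6 h and 48 h (from 39). A limit of 1.5 gave 29 lower at 6 h NR against 72 h N- and 18 higher at 12 h against 6 h NR. Against 6 h N- it gave 14 lower at 48 h N-, 18 at 72 h N-, 18 at 12 h NR and 5 at 24 h NR, and it gave 5 higher at 24 h against 12 h NR, 5 higher at 72 h NR against 72 h N- and 18 with the turn. Without the 13 genes of low mean level, 12 were lower at 24 h NR against 6 h N-. Apart from the arithmetic of a stricter limit or fewer genes, the cause was not tested. Leaving out replicates was not run, because the tables hold 1 value per time. No paired analysis was possible because the columns carry no replicate number. The unknown transformation and depth limit what differences of weak genes mean.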
